A study of Mus musculus with 10 samples.

Results

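The forkhead transcription factors Foxo1, Foxo3 and Foxo4 and 6 genes that they are known to switch on in resting cells (Txnip, Pik3ip1, Klf2, Irs2, Ccng2 and Tsc22d3) were followed through RNA sequencing of mouse leukemia cells. The 9 genes were taken by symbol, through the Ensembl identifiers of the count table, from 52550 genes in all. Of the 9, 8 had at least 10 counts over the 10 libraries. Txnip had 0 counts and was not measured.

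All libraries came from C57BL/6 bone marrow enriched for hematopoietic stem and progenitor cells and transformed in culture by a retrovirus carrying the fusion oncogene MLL-AF9. In the authors' methods, MLL-AF9-i139 cells were also transduced with tetR-KRAB, a repressor that doxycycline (DOX) releases, and with a lentiviral pCW vector. For MLL-AF9-ieGFP cells the methods describe a pCW vector with eGFP and do not state whether tetR-KRAB was added. Untreated cultures of a clone carry every construct that its treated ones do. In MLL-AF9-i139 cells, DOX induces miR-139. There were 3 clones, each picked as a colony and sequenced with and without DOX at 5 µg/mL. Clones 1 and 2 were treated for 48 h and clone 3 for 72 h, and no time was given for their untreated cultures. In MLL-AF9-ieGFP cells, DOX induces eGFP instead. This control was 1 clone, of which treated and untreated cultures were sequenced at 48 h and 72 h, so its 2 libraries per condition are 2 times of 1 clone. The dose used for it was not given in the labels. Each library was depleted of ribosomal RNA and sequenced once.

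FOXO factors sit at the end of the PI3K-AKT pathway. When growth factors activate PI3K, AKT phosphorylates the FOXO proteins, which are then bound by 14-3-3 proteins and held out of the nucleus. When the pathway is quiet they enter the nucleus and switch on genes that slow the cell cycle, resist oxidative stress and restore sensitivity to insulin, and in blood stem cells they are known for keeping cells in quiescence. Because this control acts on the protein, RNA levels of the factors do not report their activity.

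The 2 mature strands of miR-139 are shown because they are what DOX adds to MLL-AF9-i139 cells. They are given as in RefSeq on GRCm38.p6, 5′ to 3′, with the seed (bases 2 to 8) in capitals. miR-139-5p lies at chr7:101475382-101475403 and miR-139-3p at chr7:101475418-101475439, both on the plus strand.
miR-139-5p: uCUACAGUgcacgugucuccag
miR-139-3p: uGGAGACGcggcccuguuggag

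The longest annotated 3′ UTR of each of the 9 genes was searched for the letters opposite these seeds, ACTGTAG for miR-139-5p and CGTCTCC for miR-139-3p. Of 13995 tested genes with a 3′ UTR, 12.7% held ACTGTAG and 3.75% held CGTCTCC. Among the 9 genes, Foxo3 and Ccng2 held ACTGTAG and Foxo3 also held CGTCTCC, and the other 7 held neither. The 4 matches are printed on the strand of the gene, from GENCODE M21 transcripts on GRCm38, with 11 bases on each side and the match in capitals. They lie in the last exon of each gene, exon 4 of 4 in Foxo3 (chr10:42184703-42184731 and chr10:42183179-42183207, minus strand) and exon 8 of 8 in Ccng2 (chr5:93275309-93275337 and chr5:93275631-93275659, plus strand).
Foxo3, miR-139-5p seed match: ccattgcctgcACTGTAGctgtgaacacc
Foxo3, miR-139-3p seed match: ctgttttcctaCGTCTCCtgctaatggag
Ccng2, miR-139-5p seed match, nearer the start of the 3′ UTR: gcctgtctgaaACTGTAGagccttcaggt
Ccng2, miR-139-5p seed match, nearer the end: agtattgtcagACTGTAGtattattttag
A match is a run of letters and not a tested binding site. The 3′ UTR of Foxo3, 4490 bases, was longer than that of 94.4% of these genes, and longer sequences hold more matches.

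Promoters, from 250 bases before to 50 bases after each annotated start in RefSeq on GRCm38.p6, were searched on both strands for 2 FOXO motifs, TGTTTAC and CAAAACA, neither of which contains the other. Of 32851 promoters, 3.65% held TGTTTAC, 6.28% held CAAAACA and 9.63% either. The table held 10 promoters of 8 of the 9 genes, Foxo4 being the gene without one, and 3 of them held a motif. Irs2 and Ccng2 held CAAAACA starting 37 and 16 bases before the start, and Txnip held TGTTTAC 121 bases before it. The 3 stretches are printed on the strand of the gene with the motif, or its reverse complement, in capitals (chr8:11008949-11008977, minus strand, chr5:93267546-93267574 and chr3:96557825-96557853, plus strand).
Irs2: gagtcacgtgtTGTTTTGctcttagttca
Ccng2: cgtcgcagactCAAAACAaaaacaagggg
Txnip: ttggaggcctgGTAAACAagggccaagta

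Libraries held 35133308 to 47089725 counts each, and the 10 most abundant genes took 12.6% to 16.9% of it. At these depths 3 counts correspond to 0.0637 to 0.0854 CPM, where CPM is the usual depth-scaled count, here normalized with edgeR's TMM factors. Mir139 could not serve as a check of the DOX labels because its hairpin lies wholly inside another annotated gene. This matters for other genes too: 1253 of 1316 protein-coding genes that lie wholly inside other genes had 0 counts (95.2%), against 2914 of 11686 without any overlap (24.9%). Txnip, which encodes the thioredoxin-interacting protein and lies at chr3:96557957-96561883, is one of them. All of its body lies inside Gm15441, an annotated gene on the other strand that had 224 counts in total. The zeros therefore give no limit on the level of Txnip, and no fold change was computed for it.

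Foxo3 stood out among the 3 measured FOXO factors. It lies at chr10:42181841-42276755 (GRCm38, minus strand) and overlaps no other gene. Without DOX it had 138, 146 and 184 normalized CPM in MLL-AF9-i139 clones 1, 2 and 3. With DOX it had 321, 309 and 232. The eGFP control had 146 CPM untreated and 149 CPM treated at 48 h, and 143 and 145 at 72 h. Each of the 3 clones with DOX was above every one of the other 7 libraries, and the eGFP libraries stayed in the range of the untreated clones whatever the treatment. The mean was 156 ± 24.8 CPM without and 287 ± 48.3 CPM with DOX (SD, n = 3 clones). The clones were unequal: Foxo3 was 2.34-fold higher with DOX in clone 1, 2.12-fold in clone 2 and 1.26-fold in clone 3. Clone 3 had the highest untreated level and the lowest treated level of the 3, and it is also the clone treated for 72 h, so clone and time cannot be told apart.

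The fitted log2 fold change of Foxo3 was 0.90 with a standard error of 0.16, and it did not pass the threshold of 0.05 (adjusted p = 0.0882, quasi-likelihood test of edgeR, Benjamini-Hochberg over 19223 genes). In the unadjusted order of p it was gene 111 of 19223. The labels give the same clone with and without DOX, and in a fit blocked by clone the same change, 0.89 ± 0.17 (SE), had an adjusted p of 0.0282 (edgeR). It also passed in DESeq2 (adjusted p = 0.000257) and in edgeR's fit of all 10 libraries (adjusted p = 0.0140, where 6.09% of all genes passed). Without clone 1 the blocked fit gave an adjusted p of 0.0626 for a log2 change of 0.71, and without clone 3 the log2 change was 1.17 (edgeR). The labels tie no clone to a mouse, so these p-values measure the spread between clones.

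**Figure D1:**
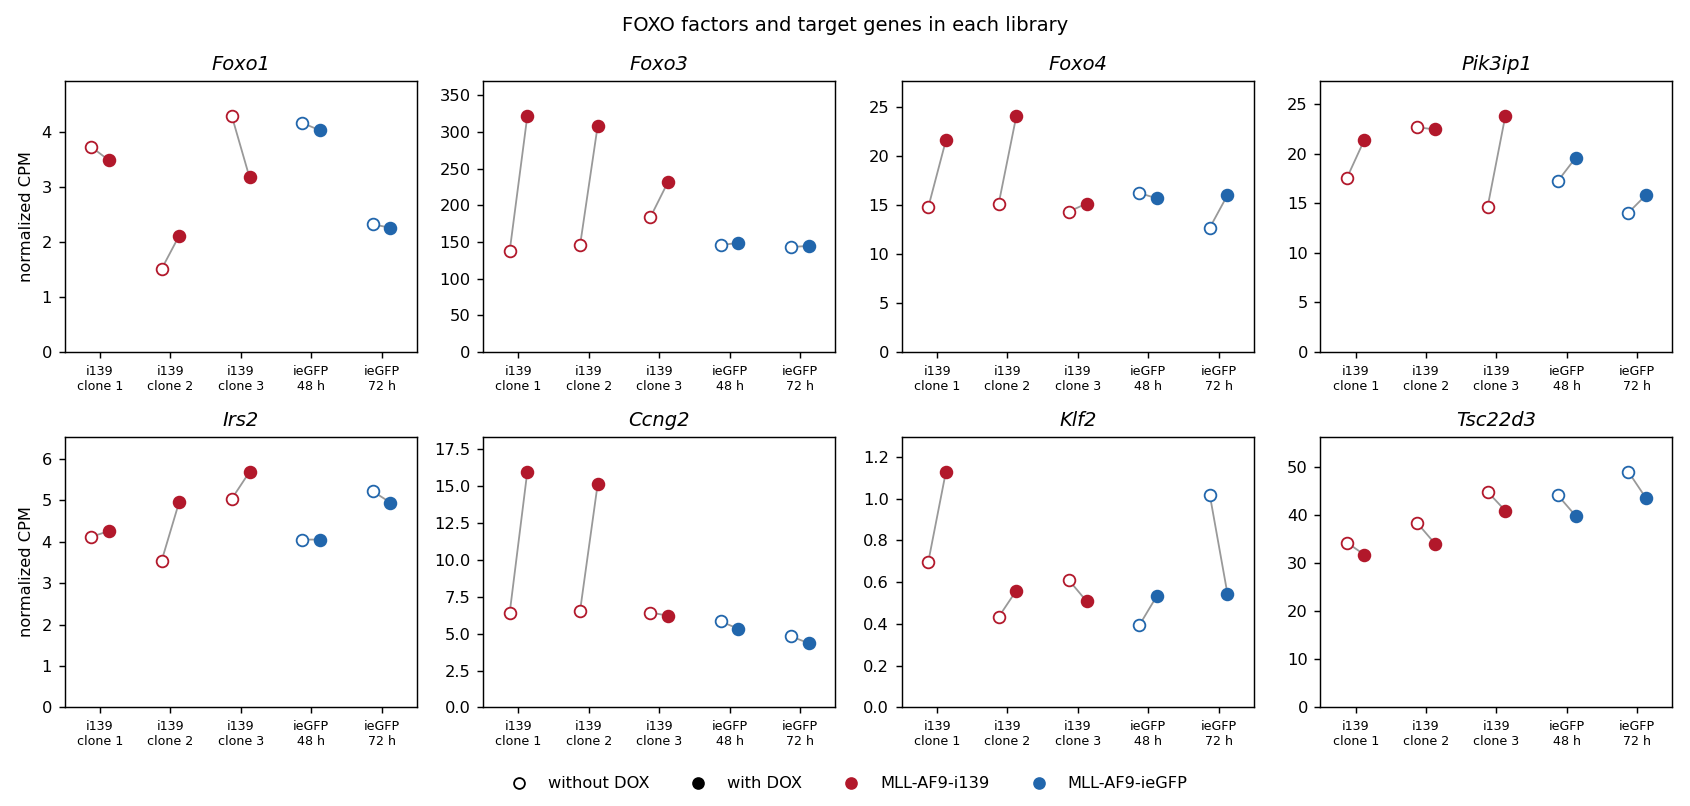
Normalized CPM (linear axis from 0) of the 8 measured genes in each of the 10 libraries, with untreated cultures as open and DOX-treated ones as filled circles, red for MLL-AF9-i139 and blue for MLL-AF9-ieGFP, and a line joining the libraries of 1 clone or time. Foxo3 with DOX lies at 232 to 321 CPM in the 3 MLL-AF9-i139 clones and at 145 to 149 CPM in MLL-AF9-ieGFP, and Ccng2 with DOX lies at 16.0 and 15.2 CPM in clones 1 and 2 and at 6.22 CPM in clone 3.

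Foxo4, an X-linked family member at chrX:101254528-101260873 (plus strand), had 14.8, 15.1 and 14.3 CPM in untreated clones 1, 2 and 3 and 21.6, 24.0 and 15.1 with DOX. The 3 treated clones lay above the 3 untreated ones, but clone 3 by little (1.06-fold). The eGFP control had 16.2 CPM untreated and 15.7 treated at 48 h, and 12.7 and 16.0 at 72 h (1.26-fold). These eGFP libraries covered the treated level of clone 3, and the 72 h eGFP pair differed more with DOX than clone 3 did. The log2 fold change was 0.47 ± 0.18 (SE, adjusted p = 0.198, edgeR), and 0.45 ± 0.14 with the clone as a block (adjusted p = 0.0756, edgeR). Foxo3 and Foxo4 were the 2 of 8 measured genes whose treated and untreated MLL-AF9-i139 libraries did not overlap. Of all 19223 genes tested, 24.9% did not overlap in either direction and 12.0% lay higher with DOX.

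Foxo1, the family member best known for metabolic control and for B and T cell development, lies at chr3:52268336-52353221 (plus strand), where 2 other annotated genes cover 3.62% of it. It was counted at a low level and did not follow DOX. It had 3.73, 1.50 and 4.28 CPM in untreated clones 1, 2 and 3 and 3.49, 2.11 and 3.18 with DOX. The eGFP control had 4.16 CPM untreated and 4.03 treated at 48 h, and 2.32 and 2.26 at 72 h. Foxo1 thus differed more between cultures than with DOX: both libraries of clone 2 and both 72 h eGFP libraries lay below the other 6 libraries. The log2 fold change with DOX was -0.10 ± 0.39 in MLL-AF9-i139 (SE, adjusted p = 0.909, edgeR), and it was 0.12 without clone 3. Foxo6, the remaining family member and not among the 9 genes, had 0 counts.

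Per kilobase of exon, Foxo3 had a mean over the 10 libraries of 25.3 CPM, Foxo4 4.75 and Foxo1 0.359. Per kilobase of the whole gene body the values were 2.01 for Foxo3, 2.61 for Foxo4 and 0.0366 for Foxo1. Total RNA holds unspliced transcripts, and the settings of the counting were not given in the sources used here, so both lengths are shown. Foxo1 was the lowest of the 3 on either scale, whereas the order of Foxo3 and Foxo4 turned with the length used.

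Ccng2 encodes cyclin G2, an unusual cyclin that slows the cell cycle, and lies at chr5:93267257-93276231 (plus strand) without overlap. It had 6.42, 6.57 and 6.44 CPM in untreated clones 1, 2 and 3, the closest agreement of the 8 genes, and 16.0, 15.2 and 6.22 with DOX. The eGFP libraries had 5.83 CPM untreated and 5.33 treated at 48 h, and 4.82 and 4.35 at 72 h. Clones 1 and 2 with DOX were thus far above all other libraries, by 2.49-fold and 2.31-fold over their own untreated cultures, while clone 3 with DOX lay below its own (0.967-fold). Over the 3 clones the log2 fold change was 0.96 ± 0.33 (SE, adjusted p = 0.167, edgeR), and 0.86 ± 0.27 with the clone as a block (adjusted p = 0.0761, edgeR). It passed in DESeq2 (adjusted p = 0.0329), where 8.09% of all genes passed. Without clone 3 it was 1.28 ± 0.16 and passed (SE, adjusted p = 0.00162, edgeR), as did 21.7% of all genes. It did not pass without clone 1, at 0.72 ± 0.43, or without clone 2, at 0.80 ± 0.46 (SE, adjusted p = 0.708 and 0.742, edgeR).

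**Figure D2:**
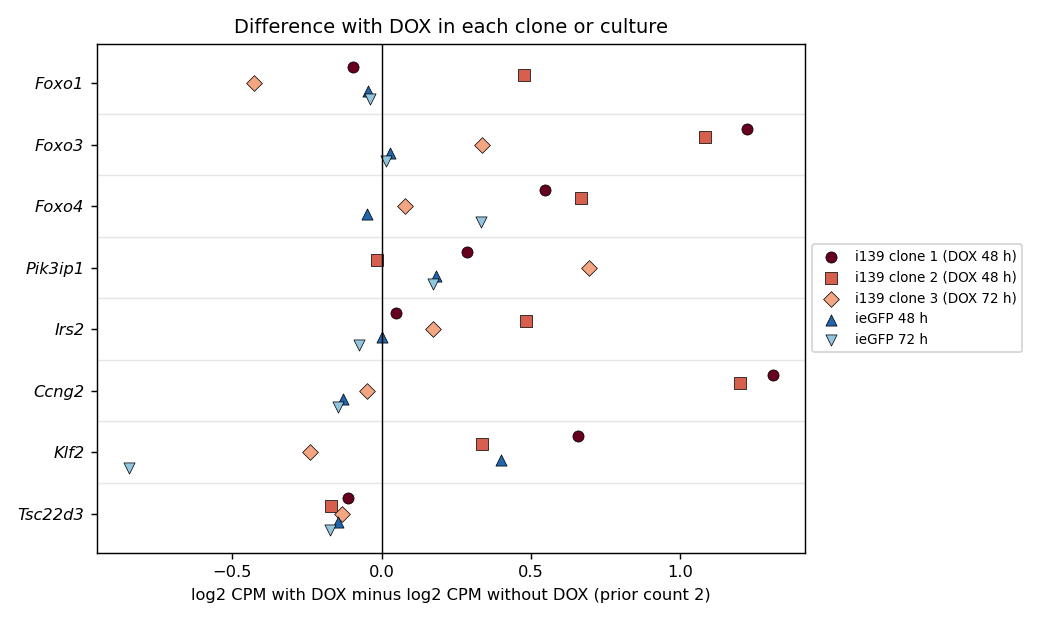
Difference in log2 CPM between DOX and no DOX (prior count 2) for each of the 8 genes, with 1 symbol for each MLL-AF9-i139 clone and for each time of MLL-AF9-ieGFP. Foxo3 and Ccng2 lie above 1 in clones 1 and 2, at 0.34 and -0.05 in clone 3, and between -0.14 and 0.03 in the eGFP cultures, while Tsc22d3 lies between -0.17 and -0.11 in all 5 pairs.

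Pik3ip1 and Irs2 act on PI3K itself. Pik3ip1, a membrane protein that inhibits PI3K, lies at chr11:3330401-3342971 (plus strand), of which Gm12592 on the other strand covers 6.19%. It had 17.6, 22.7 and 14.7 CPM in untreated clones 1, 2 and 3 and 21.4, 22.5 and 23.8 with DOX, while the eGFP libraries had 17.3 untreated and 19.6 treated at 48 h, and 14.1 and 15.9 at 72 h. The treated clones were closer together than the untreated ones, and the groups overlapped. Here clone 3 differed most (1.62-fold) and clone 2 least (0.990-fold), whereas clone 3 differed least for Foxo3, Foxo4 and Ccng2. The log2 fold change was 0.31 ± 0.17 (SE, adjusted p = 0.328, edgeR).

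Irs2, the adaptor that couples the insulin and cytokine receptors to PI3K, lies at chr8:10984681-11008458 (minus strand), of which 2.56% is covered by another gene. It had 4.12, 3.53 and 5.04 CPM in untreated clones 1, 2 and 3 and 4.26, 4.96 and 5.69 with DOX. The eGFP libraries had 4.06 CPM both without and with DOX at 48 h, and 5.22 and 4.95 at 72 h. The groups overlapped, and the log2 fold change of 0.24 ± 0.22 (SE) did not pass (adjusted p = 0.560, edgeR).

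Klf2 and Tsc22d3 are both known from resting lymphocytes. Klf2, a zinc-finger factor that keeps T cells quiescent and sets their homing receptors, lies at chr8:72319033-72321656 (plus strand) and had only 267 counts in all. With 19 to 54 counts per MLL-AF9-i139 library, it had 0.697, 0.433 and 0.608 CPM without and 1.13, 0.559 and 0.508 with DOX. Its eGFP libraries ran from 0.395 to 1.02 CPM, which covers all treated clones but clone 1. The log2 fold change was 0.36 ± 0.38 (SE, adjusted p = 0.637, edgeR).

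Tsc22d3 encodes GILZ, a leucine-zipper protein induced by glucocorticoids as well as by FOXO3, and lies at chrX:140539528-140600659 (minus strand). It had 34.3, 38.4 and 44.9 CPM in untreated clones 1, 2 and 3 and 31.8, 34.1 and 41.0 with DOX. The eGFP libraries had 44.1 CPM untreated and 39.9 treated at 48 h, and 49.0 and 43.5 at 72 h. Each culture had a slightly lower value with DOX, by a log2 difference between -0.17 and -0.11 in the 5 pairs, and the groups overlapped because the cultures differed more among themselves. The log2 fold change was -0.13 ± 0.14 in MLL-AF9-i139 and -0.16 ± 0.16 in MLL-AF9-ieGFP (SE, adjusted p = 0.662 and 1.0, edgeR).

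Over the 8 measured genes, 0 passed an adjusted p of 0.05 in MLL-AF9-i139 with edgeR, where 0.0624% of all genes tested passed. An unadjusted p under 0.05 was reached by 3 of them, Foxo3, Foxo4 and Ccng2, and by 3959 of all 19223 genes tested. With the clone as a block 1 of 8 passed, Foxo3, against 12.4% of all genes, and with DESeq2 2 of 8, Foxo3 and Ccng2, against 8.09%. Without clone 3, edgeR called 3 of 8, Foxo3, Foxo4 and Ccng2, against 21.7% of all genes, and with the block it called the same 3, against 43.4%. With only 8 genes these shares are a description. The median log2 fold change of the 8 was 0.34, with 6 above 0, and that of all genes tested was 0.01.

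**Figure D3:**
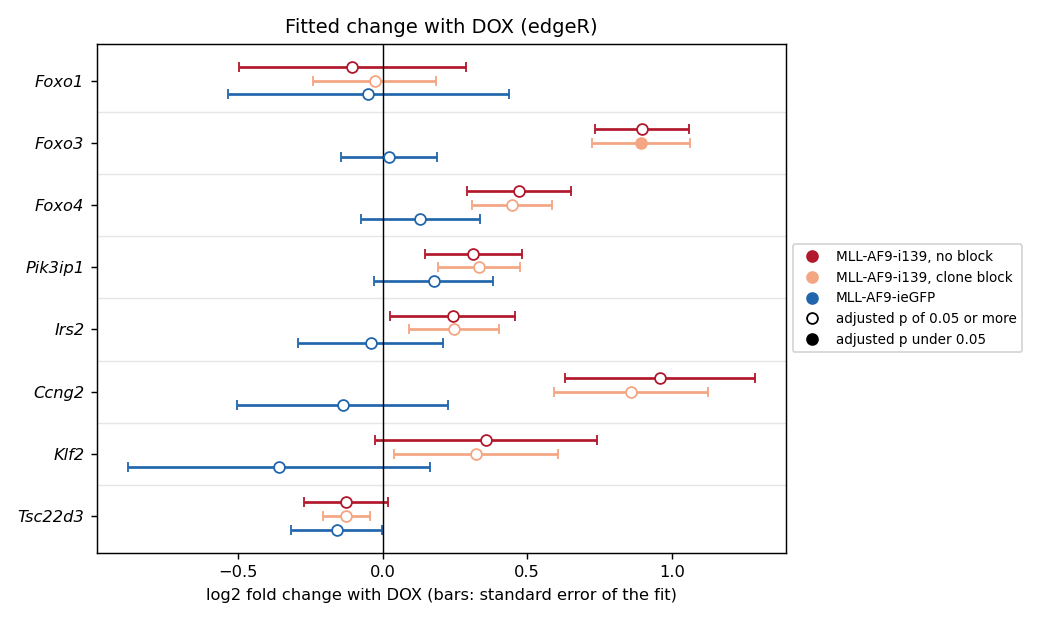
Fitted log2 fold change with DOX for the 8 genes, with the standard error of the fit as bars, in MLL-AF9-i139 without a block (red) and with the clone as a block (orange) and in MLL-AF9-ieGFP (blue), where filled points have an adjusted p under 0.05. Foxo3 with the block, at 0.89, is the filled point, and the eGFP values of Foxo3 and Ccng2 are 0.02 and -0.14.

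The eGFP control asks what DOX and an induced transgene do without miR-139. In it, 0 of the 8 genes passed (edgeR, 0.0% of 20269 genes), and 0 of them had an unadjusted p under 0.05 or passed in DESeq2. Of all genes, 259 had an unadjusted p under 0.05 and 1 passed in DESeq2 (0.00493%). The log2 fold change of Foxo3 was 0.02 ± 0.17 (SE), that of Foxo4 0.13 ± 0.21 and that of Ccng2 -0.14 ± 0.36. With 2 libraries per condition from 1 clone, the spread was borrowed from the other groups of the fit.

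Whether the change with DOX differed between the constructs was tested as an interaction in 1 fit of the 10 libraries. For Foxo3 the change was larger in MLL-AF9-i139 by 0.86 ± 0.22 on the log2 scale (SE, adjusted p = 0.527, unadjusted p = 0.00217, edgeR), and for Ccng2 by 1.08 ± 0.47 (adjusted p = 0.538, edgeR). None of the 8 genes passed in edgeR, where 0.00493% of all genes did, nor with the clone and time pairs as a block (0.187%) or with DESeq2 (0.409%). An unadjusted p under 0.05 was reached by 2 of 8 in edgeR, with or without the block, and in DESeq2. Of all 20269 genes, 1859 reached it in edgeR without the block, 3823 with the block and 1640 in DESeq2. With the block the adjusted p was 0.106 for Foxo3 and 0.187 for Ccng2 (edgeR). Without clone 3 both passed in edgeR, Foxo3 at 1.16 ± 0.11 (adjusted p = 0.000210) and Ccng2 at 1.43 ± 0.25 (adjusted p = 0.00488), against 10.2% of all genes.

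In the untreated libraries, 0 of 8 genes passed between MLL-AF9-i139 and MLL-AF9-ieGFP (edgeR, against 0.0444% of all genes). An unadjusted p under 0.05 was reached by 0 of them, against 503 of all 20269 genes, and 0 passed in DESeq2 (0.217% of all genes). The log2 differences (MLL-AF9-i139 minus MLL-AF9-ieGFP) ran from -0.25 for Klf2 and Tsc22d3 to 0.28 for Ccng2, with standard errors of 0.14 to 0.47. With 3 clones against 1, clone and construct cannot be told apart.

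The other genes of the pathway were taken from 9 lists with 122 genes, of which 107 could be tested. Without a block 0 of them passed (edgeR), and 41 had an unadjusted p under 0.05, as had 3959 of all 19223 genes. In DESeq2 18 of them passed, against 8.09% of all genes. All counts below are from the fit with the clone as a block, in which 12.4% of all genes passed. In that fit 20 were higher and 5 lower with DOX, where 7.05% of all genes were higher and 5.33% lower. Without clone 3 it gave 56 higher and 19 lower of 106 tested, against 22.5% and 20.9% of all genes. In MLL-AF9-ieGFP and in the interaction 111 of the 122 could be tested, and 0 passed (edgeR and DESeq2). In edgeR 1 and 18 of these 111 had an unadjusted p under 0.05. Of all 20269 genes, 259 and 1859 had such a p in these 2 comparisons.

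Upstream of FOXO, 5 of 10 PI3K subunits and adaptors rose and none fell. Pik3cg and Pik3cd, the catalytic subunits typical of white blood cells, rose from 104 ± 10.2 to 185 ± 51.1 CPM and from 122 ± 9.68 to 185 ± 45.1 (SD, n = 3 clones). The log2 fold changes were 0.81 ± 0.19 and 0.59 ± 0.12 (SE, adjusted p = 0.0426 and 0.0297, edgeR with the block). Pik3r5 and Pik3r6, regulatory partners of Pik3cg, rose by 1.21 and 1.11 on the log2 scale from low levels of 1.11 and 1.11 CPM. With DOX they had 2.77 ± 1.89 and 2.57 ± 1.79 CPM (SD, n = 3 clones). In DESeq2, without the block, 3 of the 10 passed, and Pik3r5 and Pik3r6 were not among them. Of 5 lipid phosphatases that oppose PI3K, Inpp5d (SHIP1) rose by 0.49 on the log2 scale and the others did not pass. This call moved with the method: in DESeq2, without the block, Inpp5d did not pass and 1 of the others did. Of 12 AKT and SGK kinases, activators and phosphatases, 1 rose and none fell with the block. Clone 3 again had the smallest difference for Pik3cg, Pik3cd, Pik3r5, Pik3r6 and Inpp5d, from 0.07 to 0.29 on the log2 scale.

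Among 18 proteins that bind or modify FOXO, Ywhag, a 14-3-3 protein, rose from 351 ± 29.5 to 552 ± 105 CPM, by 0.65 ± 0.09 on the log2 scale (SE, adjusted p = 0.0205, edgeR with the block). Skp2, a ubiquitin ligase subunit that targets FOXO1 and the inhibitor p27, fell by 0.44 on the log2 scale, and Sirt1, a deacetylase of FOXO proteins, fell by 0.37. Other genes cover 34.2% of Skp2 and 20.8% of Sirt1. The median of the list was 0.00.

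Other FOXO target genes numbered 38, of which 29 could be tested, and 7 rose and 2 fell. Cdkn1a, which encodes the cell cycle inhibitor p21 and is also a p53 target, rose from 46.2 ± 5.23 to 144 ± 70.7 CPM, by 1.52 ± 0.27 on the log2 scale (SE, adjusted p = 0.0271, edgeR with the block). Sesn3, a stress-induced inhibitor of mTORC1, rose by 2.26 from 0.668 to 3.32 CPM, and Fbxo32 (atrogin-1), a ubiquitin ligase subunit, rose by 1.21. The log2 differences of Cdkn1a in clones 1, 2 and 3 were 1.87, 2.04 and 0.55. In MLL-AF9-ieGFP Cdkn1a had 44.2 CPM without and 44.6 with DOX. The median log2 fold change of this list was 0.26.

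Of 12 tested paralogs of the members, Klf3 and Klf13 rose by 0.55 and 0.39 on the log2 scale and none fell. None of 10 tested regulators of single members other than FOXO passed (edgeR with the block), and 0 passed in DESeq2. With the block 3 of them had an unadjusted p under 0.05, as had 5997 of all 19223 genes. Of 8 tested genes that glucocorticoids induce besides Tsc22d3, Dusp1 and Nfkbia rose, by 1.68 and 0.67, and Mt1 fell by 0.66 on the log2 scale. Tsc22d3 itself, at -0.12 ± 0.08 in this fit (SE, adjusted p = 0.346, edgeR), did not pass.

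**Figure D4:**
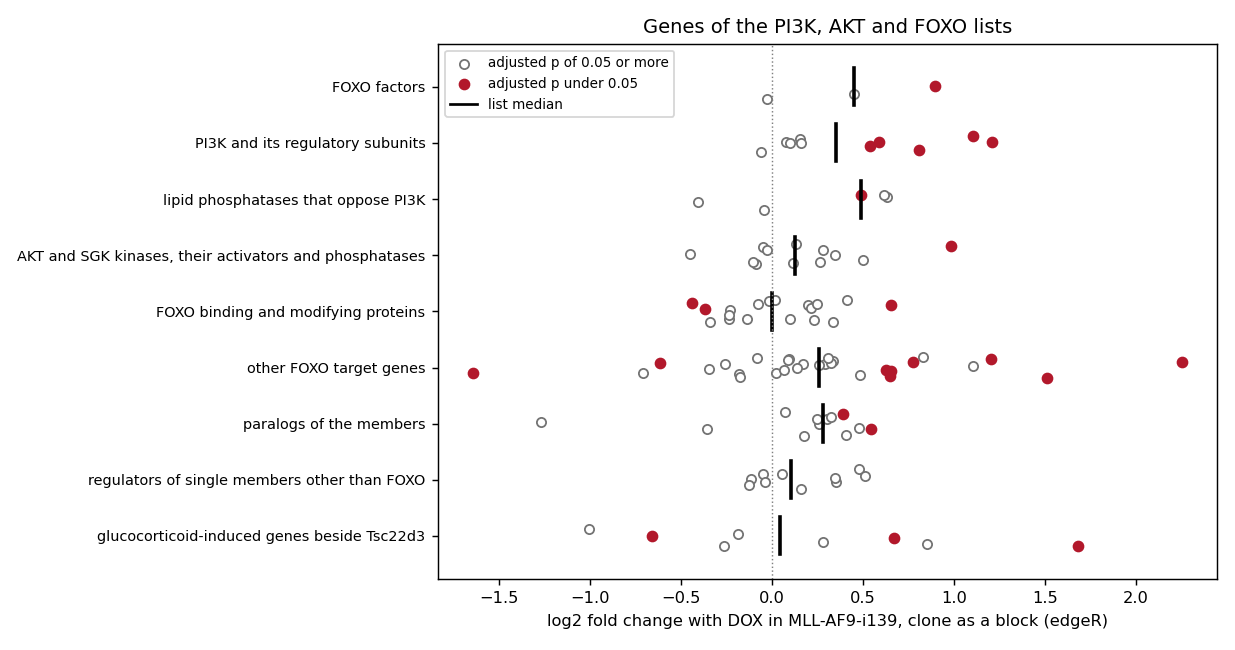
Log2 fold change with DOX in MLL-AF9-i139, with the clone as a block, of each tested gene in the 9 lists, in red where the adjusted p was under 0.05 and with a bar at the median of each list (vertical scatter within a list has no meaning). PI3K subunits hold 5 red points, all above 0, and Sesn3, at 2.26, is the highest of the FOXO targets.

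The genes whose pattern over the 10 libraries was most like that of Foxo3 were Lyz2, Cnksr3 and Bcl2a1a, with Pearson's r of 0.994, 0.986 and 0.986 in log2 CPM among 10671 genes with a mean log2 CPM of at least 1. Lyz2 encodes lysozyme of granulocytes and macrophages, Cnksr3 a signaling scaffold and Bcl2a1a an anti-apoptotic protein from a family of near-identical copies, between which reads may be split. Lyz2 had 5.84 to 9.51 CPM in untreated and 13.9 to 34.6 in treated MLL-AF9-i139 clones, and 5.66 to 6.14 in the 4 eGFP libraries. Of the members, Ccng2 and Foxo4 were most like Foxo3 (r = 0.889 and 0.809) and Tsc22d3 least (r = -0.590). These are descriptions over 10 libraries that share clones and treatment, with no test.

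The libraries are bulk RNA, in which fewer cells of a type and less RNA per cell cannot be told apart. Markers of the labelled cells were present: Kit lay at 132 to 172 CPM in all 10 libraries, and Hoxa9 and Meis1, genes that MLL fusions keep on, at 84.9 to 141 and 75.2 to 112. Itgam, which is covered by other genes over 99.9% of its body, had 6 counts and cannot be judged. Of 11 tested markers of myeloid progenitors and MLL-AF9 cells, 4 were higher (Fcgr3, Mpo, Ctsg and Cd34) and 2 lower (Hoxa9 and Hoxa10) with DOX in the fit with the block. Cd34 had only 37 counts in all, at up to 0.418 CPM, and other genes cover 24.6% of it and 49.5% of Mpo. Of 8 tested markers of mature neutrophils, 3 were higher (Ngp, Lcn2 and Cxcr2), and the sum of the list was 135 to 230 CPM in untreated and 203 to 393 in treated MLL-AF9-i139 clones, and 293 to 409 in the eGFP libraries. That sum also holds S100a8 and S100a9, at up to 125 and 136 CPM, which did not pass (log2 fold changes of 0.24 and -0.01 with the block).

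Of 6 tested monocyte markers 1 was higher (Csf1r) and 1 lower (Ccr2), with sums of 356 to 443 CPM untreated and 283 to 433 treated, and C1qa at 0. T cell markers, relevant to Klf2, summed to 7.80 to 10.9 and 9.78 to 20.0 CPM, with 1 of 5 higher (Cd28). B cell markers stayed at or under 2.00 CPM, with 0 of 5 passing, and Ms4a1 and Rag1, each wholly covered by other genes, had 0 counts and cannot be judged. Erythroid and megakaryocyte markers summed to 5.33 to 6.95 and 7.93 to 9.15 CPM, with 1 of 4 higher (Gp1ba) and Hbb-bs at 0, and mast cell and basophil markers to 13.2 to 21.0 and 18.4 to 22.6 CPM, with 1 of 4 higher (Mcpt8), 1 lower (Hdc) and Fcer1a and Prss34 at 0. Of the 43 tested markers of the 7 lists together, 15 passed with the block (12.4% of all genes) and 11 in DESeq2 (8.09% of all genes). Without the block 0 passed in edgeR, and 18 had an unadjusted p under 0.05, as had 3959 of all 19223 genes. Their part in the differences of Foxo3, Foxo4 and Ccng2 was not tested.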

How the data were processed

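RNA of 10 libraries was sequenced. The authors mapped reads to GRCm38, and their processing notes name FastQC 0.11.8, STAR 2.5.3e, featureCounts 1.6.0, MultiQC and DESeq2 1.22.2. They deposited raw counts per gene. The strand and overlap settings of the counting were not given in the sources used here. The 2 deposited tables held 0 differing values for the 10 libraries and 25799 of 52550 genes at 0, so the authors' removal of genes with fewer than 10 reads came later. A further 14 columns belong to other samples and were not used. Column names carry another clone numbering and were matched through the labels.

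Here, genes with at least 10 counts in total were tested with edgeR 4.0.16 (R 4.3.3), TMM normalization, the quasi-likelihood test and Benjamini-Hochberg adjustment over all genes, with a threshold of 0.05. The change in MLL-AF9-i139 came from its 6 libraries, and the other comparisons from 1 fit of 10 libraries in 4 groups. Clone differences are log2 CPM with a prior count of 2. The labels name the clone of each library, which pairs them: over 19223 genes the deviations from the group means correlated at 0.381, 0.288 and 0.414 within clones 1, 2 and 3 and at -0.315 to -0.0436 between clones. Because the deviations of a group cancel out, positive values within clones bring negative ones between clones. Alternatives were the clone as a block, DESeq2 1.42.0, RLE factors, other filters, a joint fit and each clone or time left out. Scripts were tested on simulated data. Python 3.11.15, numpy 2.4.6, pandas 2.3.3 and matplotlib 3.10.9 served for the rest.

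The 9 genes, the 9 pathway lists and the 7 marker lists were chosen with earlier results of these data known. Named were all 9 genes, of each pathway list at most 4 genes past the threshold by size of change, the 3 genes most like Foxo3, and markers. Some genes that these rules name are not reported here. The fitted changes cover counting error and the spread between clones or, with a block, that of the change among clones. In the fit of 10 libraries they also cover the spread between the times of the eGFP clone. The depth of each library was at least 35133308 counts.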

Additional observations from a re-analysis of the deposited data

How the results depend on the processing

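The call of Foxo3 in MLL-AF9-i139 rests on the clone block or on a fit with more calls, and that of Ccng2 on leaving out clone 3 or on DESeq2. Foxo4 did not pass in DESeq2 without the block (adjusted p = 0.106). Its call rests on leaving out clone 3 or on DESeq2 with the block. The number of genes past the threshold in MLL-AF9-i139 was 12 in edgeR without a block, 2381 with the replicate block (paired by clone), 1556 with DESeq2, 1234 in the fit of 10 libraries, 562 without a filter and 6 with at least 10 counts in 3 libraries, and leaving out a clone gave 0 to 3981. Chosen after seeing the data, DESeq2 with the block gave 3012, and the blocked fit gave 324, 580 and 7974 without clones 1, 2 and 3. Of the 8 measured genes 0 passed without a block, 1 with it, in the fit of 10 libraries and without a filter, 2 with DESeq2, 3 with DESeq2 and the block, 0 to 3 when a clone was left out, and 0, 1 and 3 in the blocked fit without clones 1, 2 and 3. In MLL-AF9-ieGFP the count of all genes was 0, and 1 with DESeq2 and without a filter. For the interaction it was 1, 83 with DESeq2, 71 without a filter, 0 with the stricter filter, 38 with the block and 0 to 2011 when a clone or time was left out, and that of the 8 genes was 0, or 2 without clone 3. For the untreated libraries it was 9, 44 with DESeq2, 37 without a filter and 0 to 30 when a clone or time was left out.

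Some log2 values changed sign when a clone or time was left out. In MLL-AF9-i139 Foxo1 ran from -0.25 to 0.12, and it was 0.18 in the blocked fit without clone 3. In MLL-AF9-ieGFP Foxo3 ran from -0.00017 to 0.034, Foxo4 from -0.044 to 0.32, Irs2 from -0.092 to 0.0046 and Klf2 from -0.91 to 0.44. In the interaction Foxo1 ran from -0.21 to 0.18, Pik3ip1 from -0.021 to 0.31 and Klf2 from -0.10 to 1.28. In the untreated libraries Foxo1 ran from -0.38 to 0.41, Foxo3 from -0.051 to 0.19, Foxo4 from -0.13 to 0.18, Irs2 from -0.34 to 0.071 and Klf2 from -0.84 to 0.56. The causes were not tested. Where 1 time of the eGFP clone was left out, the lone library was assumed to vary like the other groups. Depth limits Klf2, with 18 to 54 counts per library.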
